A study of Mus musculus with 8 samples.

Results

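Ion channels, calcium stores and ion pumps of alpha cell excitability were followed in αTC1-6 cells that carried an empty plasmid or a plasmid overexpressing Yy1, a zinc finger transcription factor. The 45 genes were taken by symbol from a list of K-ATP, voltage-gated and TRP channels, glutamate receptor subunits, and calcium store channels and pumps, out of 75078 Ensembl genes in the table, and all 45 were found. The list was drawn up from the genes' functions, and earlier results on these libraries were known when it was made. αTC1-6 is a clonal mouse line of glucagon-producing alpha cells that came from a tumour driven by a viral oncogene, so all libraries share 1 immortalised background. Each group had 4 libraries of poly(A) RNA, numbered 31 to 34 for the empty (stuffer) plasmid and 45 to 48 for the Yy1 plasmid. In both groups the cells were seeded at equal numbers and transfected 24 h later in DMEM labelled 11 mM. Neither a harvest time nor separate cultures are stated in the labels, so the p-values rest on how far these samples differ, and that may be technical.

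Alpha cells are electrically active. They fire sodium- and calcium-carried action potentials, and the calcium that enters triggers release of glucagon. K-ATP channels, which close when ATP rises, couple glucose metabolism to the membrane potential, while other potassium channels set the resting potential and end each spike. Voltage-gated calcium channels consist of a pore subunit with an auxiliary beta and an alpha2delta subunit. Inside the cell the endoplasmic reticulum stores calcium that SERCA pumps load, that IP3 and ryanodine receptors release, and whose depletion opens Orai channels through the sensor Stim1.

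The libraries held between 20679804 and 33347445 counts, and a gene without counts could still have up to 3, which equals 0.145 CPM (counts scaled to a common library size) in the smallest of them. Yy1 itself stood at 175 ± 5.33 CPM in empty plasmid cells and 5233 ± 464 CPM with its own plasmid (SD, n = 4). The alpha cell hormone gene Gcg stood at 21228 ± 547 and 21291 ± 372 CPM (SD, n = 4). Of 10 alpha cell markers, 8 could be tested and 0 were called by edgeR. Gc had no counts in any library and Loxl4 had at most 4 counts in a library. The beta cell genes Ins1 and Ins2 had no counts either, although Nkx6-1, another beta cell marker, stood at 54.8 CPM in empty plasmid cells. Among 4 delta cell markers, Rbp4 stood at 1685 CPM, Ghsr at 20.2 CPM and Hhex at 0.351 CPM in empty plasmid cells. The remaining one, Sst, had at most 1 count in a library. The 7 neuronal markers summed to between 1897 and 2435 CPM in empty plasmid cells and between 1935 and 2009 CPM in Yy1 plasmid cells. Of that sum, Nefm gave 1149 ± 236 CPM in empty plasmid cells (SD, n = 4), and Rbfox3 had at most 11 counts in a library. Nefl, Elavl3, Snap25, Syn1 and Tubb3 stood at 303, 264, 255, 67.3 and 33.1 CPM in empty plasmid cells. The 8 stromal, endothelial and immune markers summed to at most 3.07 CPM. In bulk samples of this kind, fewer cells that express a gene and less RNA per cell cannot be told apart.

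Of the 45 genes, 35 passed the filter on low counts and were tested, and 34 of these lay above the filter's level in all 8 libraries (Atp2a3 lay below it in 1 Yy1 library). The edgeR quasi-likelihood test called 0 of the 35 at an adjusted p under 0.05, where it called 0.515% of all 15916 tested genes, 0.496% as higher and 0.0188% as lower. DESeq2 and limma-voom also called 0. An unadjusted p under 0.05 was found for 2 of the 35, or 5.71%, against 5.42% of all tested genes. Both were positive, and among all tested genes 3.23% passed that level as positive and 2.19% as negative. The smallest adjusted p was 0.547, for Itpr2. Log2 fold changes, given throughout as the Yy1 plasmid over the empty plasmid, ran from -0.16 to 0.74 with a median of 0.017, beside -0.0025 over all tested genes. They were positive for 21 genes, or 60%, and negative for 14, where 48.6% of all tested genes were positive. Libraries of the groups did not overlap for 3 genes, Kcnj11, Scn3a and Scn3b, or 8.57%, against 3.95% of all tested genes. Scn3b lay higher, beside 2.37% of all tested genes, and Kcnj11 and Scn3a lower, beside 1.57%. The remaining 10 genes were too low to test. They were Kcnb2, Kcnd3, Kcnk9, Cacna1b, Cacna1h, Cacnb1, Cacnb4, Cacna2d2, Cacna2d3 and Trpm3, and the highest value among them in any library was 0.662 CPM, for Trpm3.

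**Figure D1:**
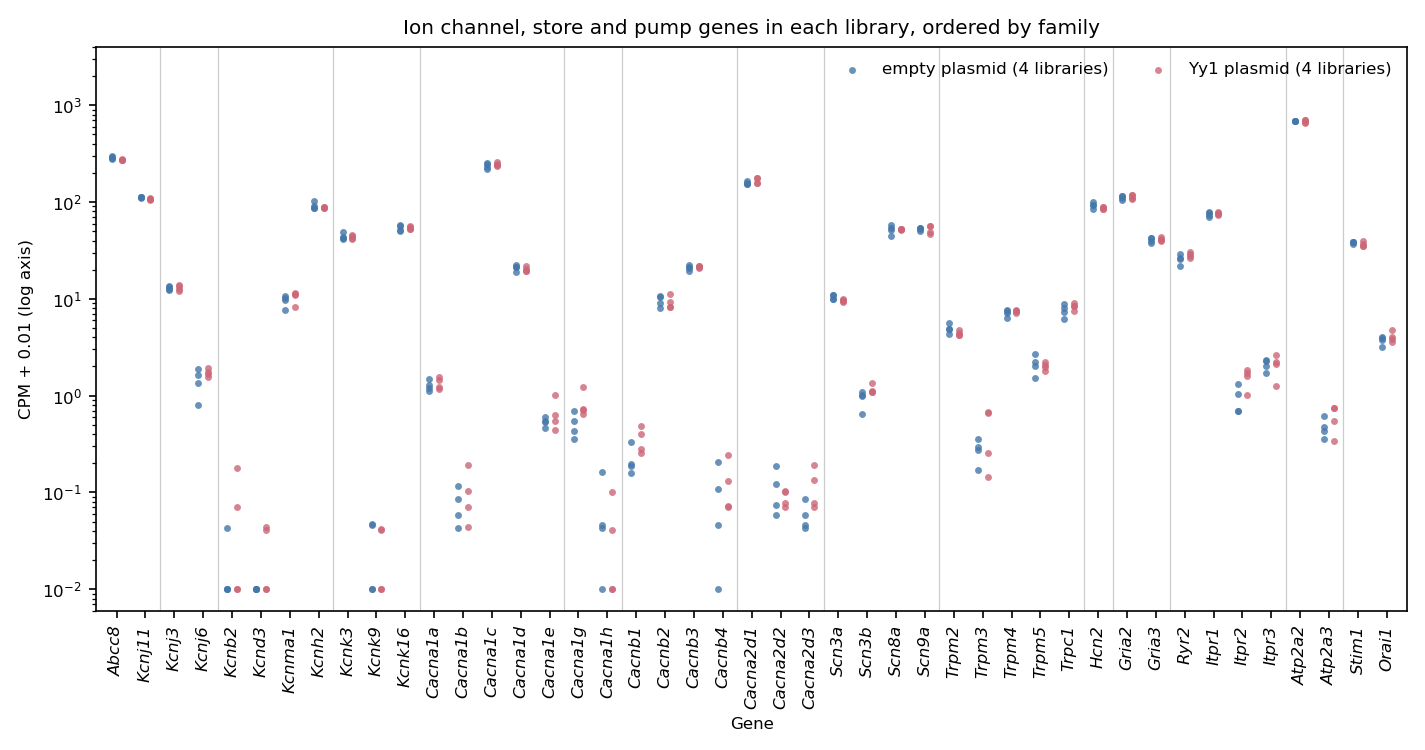
Level of each of the 45 genes in each library, as CPM + 0.01 on a log axis, ordered by family with grey lines between families. Blue points are the 4 libraries of empty plasmid cells and red points the 4 of Yy1 plasmid cells; Atp2a2 lies highest, between 652 and 710 CPM in all 8 libraries, and Kcnd3 lowest, at 0 in 6 of them.

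Of the potassium channels, those gated by ATP led by level. Abcc8 (ENSMUSG00000040136, chromosome 7), the sulfonylurea receptor that regulates the K-ATP channel, stood at 282, 301, 277 and 289 CPM in empty plasmid libraries 31 to 34 and at 275, 274, 275 and 282 CPM in Yy1 plasmid libraries 45 to 48. The ranges overlapped only through Yy1 library 48, which lay at the level of empty library 31. Its log2 fold change was -0.06 (SE 0.0383; adjusted p in edgeR = 0.963). Kcnj11 (ENSMUSG00000096146), the pore subunit of the same channel, stood at 113, 113, 114 and 110 CPM in empty plasmid cells and at 108, 107, 109 and 105 CPM in Yy1 plasmid cells. Every Yy1 library lay below every empty one, by a small margin. Its log2 fold change was -0.06 (SE 0.038; adjusted p in edgeR = 0.947), with a 95% interval from -0.14 to 0.015.

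The K-ATP subunits assemble in equal numbers, so their relative level was compared per kilobase of annotated exon. Abcc8 was 1.16 ± 0.0508 times as high as Kcnj11 in empty plasmid cells and 1.17 ± 0.0347 times in Yy1 plasmid cells (SD of the per-kilobase ratio, n = 4). The ratio depends on the length used. With the longest transcript in place of all exons it was 1.65 ± 0.072 in empty plasmid cells, since the annotated exons of Abcc8 cover 8.09 kb and its longest transcript 4.88 kb.

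Among the other inward rectifiers, Kcnj3, a subunit of G protein-gated channels, stood at 12.9 ± 0.557 and 13.1 ± 0.816 CPM, and Kcnj6, a subunit of the same class, at 1.40 ± 0.463 and 1.71 ± 0.160 CPM (SD, n = 4). Kcnj6 was lowest in empty library 33, with 16 counts, and its log2 fold change of 0.27 had a 95% interval from -0.19 to 0.73. On the opposite strand, Kcnj3 shares 1621 exon bases with Gm26794, which is not among the counted genes. Kcnj6 shares 380 with Gm41505, at 0.335 CPM in empty plasmid cells. The levels of both are uncertain where strand was not used in counting. Kcnh2 (ERG1), a repolarising channel whose current is known as hERG in humans, was at 86.1, 102, 85.8 and 91.7 CPM in empty plasmid cells and at 88.7, 87.2, 88.1 and 85.9 CPM in Yy1 plasmid cells. Empty library 32 stood above the rest, and the other 7 libraries spanned a narrow range. Kcnma1, the large-conductance calcium-activated channel, was at 9.57 ± 1.37 and 10.4 ± 1.54 CPM (SD, n = 4; change on the log2 scale 0.13, SE 0.118, adjusted p in edgeR = 0.987).

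Counts of other voltage-gated potassium channels on the list were close to none. Kcnd3, an A-type channel, had 0 counts in all 4 empty libraries and 1, 1, 0 and 0 in the Yy1 libraries. Kcnb2, a delayed rectifier, had 1, 0, 0 and 0 counts and 2, 5, 0 and 0. These counts lie at or near the limit that 3 counts set in a library. Kcnh2 took 97.1 ± 0.35% of the summed level per kilobase of Kcnh2, Kcnma1, Kcnb2 and Kcnd3 in empty plasmid cells (SD, n = 4). The related Kcnd1, which is not on the list and was picked after its values were seen, stood at 1.26 ± 0.21 CPM per kilobase in empty plasmid cells (SD, n = 4).

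K2P channels carry a background potassium leak. Kcnk16 (TALK-1), a channel known from islet endocrine cells, stood at 57.8, 50, 56.7 and 51.2 CPM in empty plasmid cells and at 53.1, 52.2, 56.9 and 55.4 CPM in Yy1 plasmid cells. Kcnk3 (TASK-1), an acid-sensitive channel, was at 44.0 ± 3.23 and 43.8 ± 1.83 CPM (SD, n = 4). In both genes the groups overlapped, with log2 fold changes of 0.01 (SE 0.0511) and -0.0021 (SE 0.0532). Kcnk9 (TASK-3), the close relative of Kcnk3, had 2 counts over the empty libraries and 2 over the Yy1 libraries. Kcnk3 shares 229 exon bases with Gm9899, a gene on the opposite strand at 1.83 CPM. Per kilobase Kcnk16 was 2.06 ± 0.153 times as high as Kcnk3 in empty plasmid cells and 2.08 ± 0.094 times in Yy1 plasmid cells (SD, n = 4).

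Promoter sequences from RefSeq (GRCm38.p6) covered 31 of the 45 genes in 42 windows of 300 bases, from 250 bases before to 50 bases after an annotated start. A core YY1 motif, GCCATNTT, was searched on both strands as a description. It was found for 1 of the 31 genes, or 3.23%, against 6.96% of the 27025 genes with a window. No other motif was searched. The window with the match is that of Kcnma1 (chr14:24004156-24004455, minus strand), where the match lies on the other strand and begins at position -6 from the start. It is printed with the match in capitals, as read on the strand of the gene.
Kcnma1: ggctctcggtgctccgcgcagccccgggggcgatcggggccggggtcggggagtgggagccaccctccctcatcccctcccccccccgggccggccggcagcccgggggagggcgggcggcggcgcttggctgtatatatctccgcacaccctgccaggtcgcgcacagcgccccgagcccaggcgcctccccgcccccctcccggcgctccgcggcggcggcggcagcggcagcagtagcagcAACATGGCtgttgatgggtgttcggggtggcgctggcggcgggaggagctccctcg

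No window was given for Atp2a2, Abcc8 and Kcnj11, the highest of the list per kilobase. The promoters covered were rich in CpG pairs. With the windows of a gene averaged, the median over the 31 genes was 24 CpG per window and 65.7% G and C. It was 7 CpG and 52.8% over all genes with a window, expressed or not. Kcnk16 and Hcn2, picked with their levels known, are shown as neighbours in level whose windows differ in this, with 2 and 26 CpG. They stood at 22.7 ± 1.64 and 29.2 ± 2.17 CPM per kilobase (SD, n = 4, empty plasmid), and their libraries did not overlap. Whether CpG number goes with level was not tested. The single window of Cacna2d1 held 42 CpG, and 1 of 3 windows of Cacna1c held 57. Hcn2 encodes a pacemaker channel that opens on hyperpolarisation. Both windows are printed with CpG pairs in capitals, Kcnk16 from chr14:20269220-20269519, minus strand, and Hcn2 from chr10:79716384-79716683, plus strand.
Kcnk16: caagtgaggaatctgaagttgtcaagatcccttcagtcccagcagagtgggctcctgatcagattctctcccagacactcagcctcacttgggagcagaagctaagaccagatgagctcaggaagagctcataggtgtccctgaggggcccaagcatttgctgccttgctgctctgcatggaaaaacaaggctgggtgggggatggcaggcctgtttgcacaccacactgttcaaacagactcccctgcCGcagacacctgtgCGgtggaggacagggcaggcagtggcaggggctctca
Hcn2: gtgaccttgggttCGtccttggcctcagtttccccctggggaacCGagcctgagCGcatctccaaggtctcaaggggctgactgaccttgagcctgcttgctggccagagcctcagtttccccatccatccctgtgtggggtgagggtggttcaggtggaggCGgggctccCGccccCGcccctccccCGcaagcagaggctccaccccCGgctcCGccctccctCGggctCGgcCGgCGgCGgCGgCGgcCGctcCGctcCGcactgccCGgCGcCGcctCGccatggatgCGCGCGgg

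Hcn2 stood at 84.3, 101, 93.9 and 93.3 CPM in empty plasmid cells and at 88.5, 89.3, 85.5 and 84.9 CPM in Yy1 plasmid cells. The empty libraries were more spread, and library 31 was the lowest of all 8 while the other 3 lay above every Yy1 library. A log2 fold change of -0.10 (SE 0.048) had an unadjusted p of 0.0534 and an adjusted p in edgeR of 0.909. Leaving out empty library 31 gave a log2 fold change of -0.15 and leaving out library 32 one of -0.056.

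Among the listed calcium channel genes, 1 gene led each of the high-voltage pore, beta and alpha2delta classes. Cacna1c (ENSMUSG00000051331, chromosome 6), the pore of an L-type channel, stood at 219, 245, 229 and 254 CPM in empty plasmid cells and at 238, 243, 247 and 257 CPM in Yy1 plasmid cells. Cacna1d, the pore of the other L-type channel of endocrine cells, stood at 19, 22.5, 21.1 and 21.2 CPM and at 20.3, 19.5, 19.6 and 21.6 CPM. For both genes the groups overlapped, with log2 fold changes of 0.06 (SE 0.0456) and -0.05 (SE 0.0651). Per kilobase, Cacna1c was 6.74 ± 0.332 times as high as Cacna1d in empty plasmid cells and 7.26 ± 0.255 times in Yy1 plasmid cells (SD, n = 4). With the longest transcript as length this ratio was 8.30 ± 0.409 in empty plasmid cells.

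Together the L-type pores made up nearly all of the listed high-voltage class. Cacna1c took 86.1 ± 0.608% and Cacna1d 12.8 ± 0.534% of its level per kilobase in empty plasmid cells, and 86.9 ± 0.408% and 12.0 ± 0.367% in Yy1 plasmid cells (SD, n = 4). Cacna1a, the P/Q-type pore, which is known for coupling calcium entry to exocytosis in nerve terminals and in alpha cells, stood at 1.26 ± 0.157 and 1.34 ± 0.18 CPM. Cacna1e, the R-type pore, stood at 0.524 ± 0.0564 and 0.652 ± 0.252 CPM. Cacna1b, the N-type pore, had 1, 2, 1 and 3 counts in empty plasmid cells and 6, 1, 2 and 3 in Yy1 plasmid cells.

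Of the low-voltage or T-type pores, which open near the resting potential, the members Cacna1g and Cacna1h were both scarce. Cacna1g had 13, 18, 7 and 15 counts in empty plasmid cells and 23, 36, 21 and 23 in Yy1 plasmid cells, or 0.422, 0.678, 0.343 and 0.537 CPM against 0.705, 1.21, 0.632 and 0.721 CPM. The groups overlapped, since empty library 32 lay above Yy1 library 47. The log2 fold change of 0.70 (SE 0.318) had an unadjusted p of 0.0386 and an adjusted p in edgeR of 0.89, and without Yy1 library 46, the highest, it was 0.45. Cacna1h had 6 counts over the empty libraries and 4 over the Yy1 libraries. Cacna1i, the third T-type pore, is not on the list and was picked after its values were seen. It stood at 7.79 ± 0.496 CPM per kilobase in empty plasmid cells, against 0.0488 ± 0.0144 for Cacna1g (SD, n = 4), and its log2 fold change was 0.04 (SE 0.0466; adjusted p in edgeR = 0.993).

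Beta subunits bring the pore to the membrane and tune its gating. Cacnb3 stood at 20.8 ± 1.04 and 21.4 ± 0.597 CPM and Cacnb2 at 9.53 ± 1.25 and 9.19 ± 1.44 CPM (SD, n = 4). Per kilobase Cacnb3 made up 87.0 ± 1.27% of the class in empty plasmid cells and 87.2 ± 1.76% in Yy1 plasmid cells. The share depends on the length used, and with the longest transcript it was 79.5 ± 1.8% in empty plasmid cells. Cacnb1 had 23 counts over the empty and 44 over the Yy1 libraries, and Cacnb4 had 8 and 15. Reads of Cacnb4 may also come from A430018G15Rik, a noncoding gene on the opposite strand that shares 1433 annotated exon bases with it, because the use of strand in counting is not given in the sources used here.

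Of the listed alpha2delta subunits, which raise the number of channels at the surface, almost all of the level came from Cacna2d1. It stood at 154, 158, 153 and 164 CPM in empty plasmid cells and at 157, 176, 157 and 177 CPM in Yy1 plasmid cells. Yy1 libraries 46 and 48 lay above all others, and the remaining 2 fell within the empty range. Its log2 fold change was 0.08 (SE 0.0458; adjusted p in edgeR = 0.939). Its share of the listed class was 99.9 ± 0.0551% in empty plasmid cells, with 11 and 5 counts for Cacna2d2 and Cacna2d3 over the 4 libraries. Cacna2d4 is not on the list and was picked after its values were seen. It stood at 0.0951 ± 0.0313 CPM per kilobase in empty plasmid cells (SD, n = 4).

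**Figure D2:**
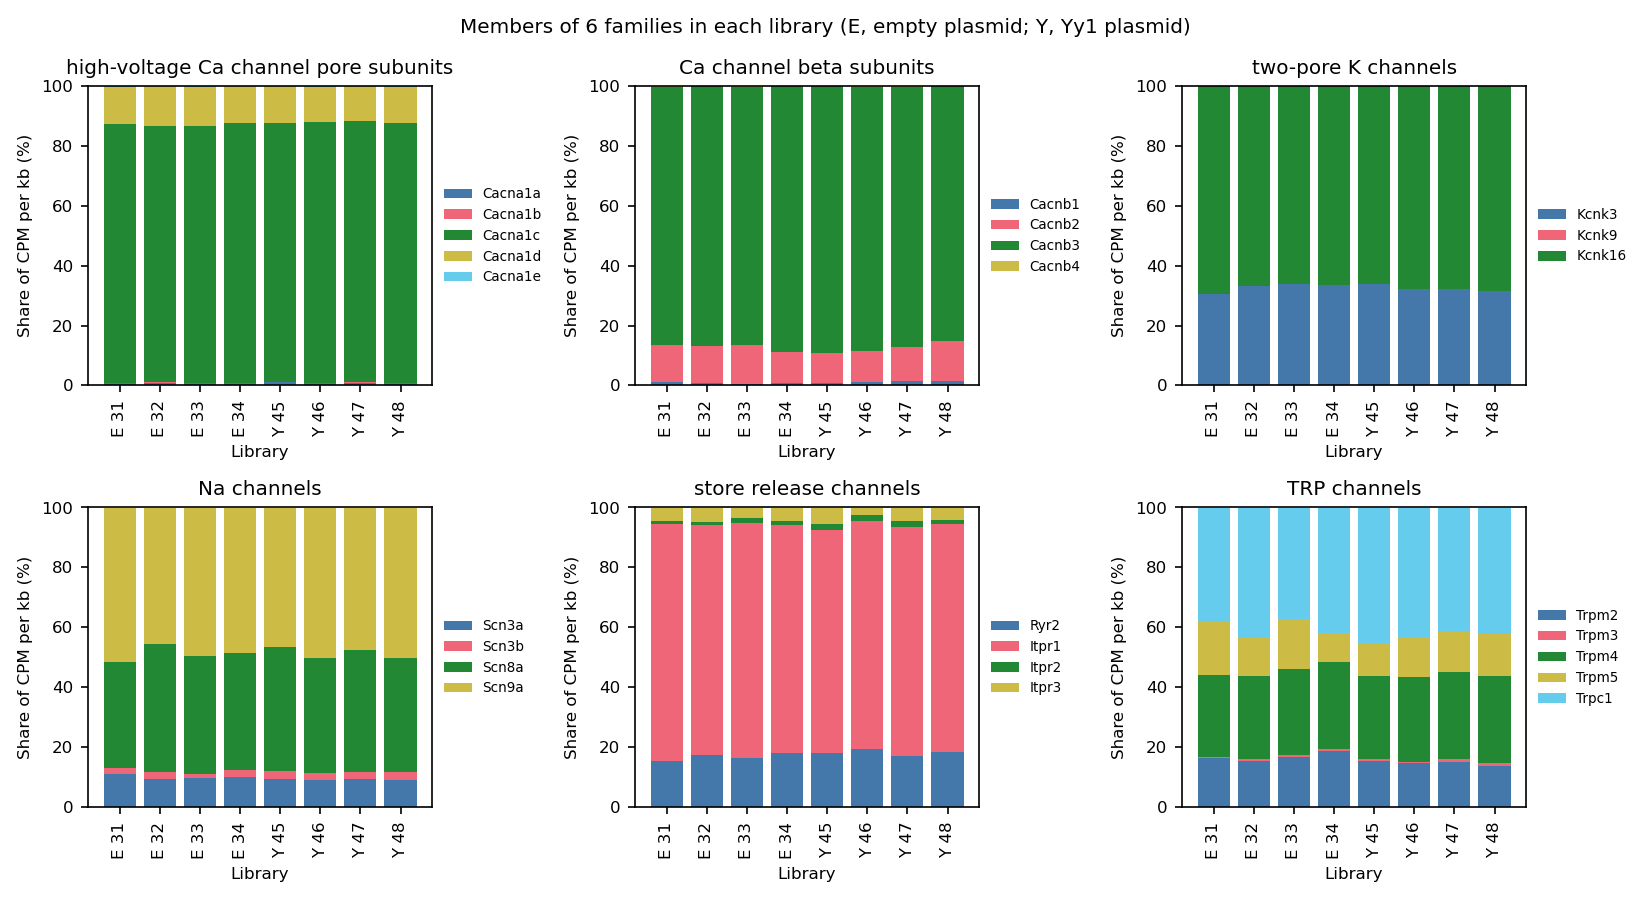
Share of each gene in the summed CPM per kilobase of its family, in percent, for 6 families in each library (E, empty plasmid 31 to 34; Y, Yy1 plasmid 45 to 48). The make-up repeats from library to library, with Cacna1c, Cacnb3, Kcnk16 and Itpr1 leading their families in all 8 and Scn9a lying above Scn8a in all 8.

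Sodium channels carry the upstroke of the alpha cell action potential. Scn8a (Nav1.6) stood at 44.8, 57.5, 51.5 and 54.2 CPM in empty plasmid cells and at 52.0, 53.0, 52.1 and 52.3 CPM in Yy1 plasmid cells. The Yy1 libraries lay close together while the empty ones spread on both sides of them. Scn9a (Nav1.7) stood at 53.6, 49.7, 52.6 and 54.2 CPM and at 47.2, 56.2, 49.1 and 56.5 CPM, so here the Yy1 libraries were the more spread. Log2 fold changes were 0.01 (SE 0.058) and -0.0080 (SE 0.0563). Scn9a took 48.8 ± 2.56% and Scn8a 39.1 ± 3.17% of the family per kilobase in empty plasmid cells (SD, n = 4), and the ratio of Scn8a to Scn9a per kilobase lay between 0.678 and 0.938 over the 8 libraries, so Scn9a was the higher in each.

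Scn3a (Nav1.3) was at 11, 10.1, 10 and 11 CPM in empty plasmid cells and at 9.32, 9.73, 9.42 and 9.85 CPM in Yy1 plasmid cells. All 4 Yy1 libraries lay below all 4 empty ones. In edgeR its log2 fold change was -0.14 (SE 0.0788), the unadjusted p 0.0931 and the adjusted p 0.946. Scn3b, an auxiliary beta subunit of sodium channels, was at 1.01, 0.979, 0.637 and 1.07 CPM and at 1.10, 1.08, 1.08 and 1.35 CPM. Its groups did not overlap either, by a margin of less than 1 count. The log2 fold change of 0.30 (SE 0.241) had an adjusted p in edgeR of 0.98.

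TRP channels pass cations when calcium, temperature or oxidants open them. Trpc1, which has been linked to receptor-operated entry, stood at 7.60 ± 1.16 and 8.32 ± 0.602 CPM, and Trpm4, a calcium-activated sodium-permeable channel, at 7.17 ± 0.569 and 7.46 ± 0.239 CPM (SD, n = 4). Trpm2, which oxidants and ADP-ribose open, stood at 4.84, 4.86, 4.31 and 5.62 CPM in empty plasmid cells and at 4.78, 4.41, 4.24 and 4.17 CPM in Yy1 plasmid cells. Its log2 fold change of -0.16 (SE 0.119; adjusted p in edgeR = 0.98) was the lowest of the 35 tested genes, and it was -0.089 without empty library 34, where Scn3a stood at -0.12. Trpm5, a further calcium-activated channel, was at 2.10 ± 0.479 and 2.01 ± 0.185 CPM. It shares 220 exon bases with Tssc4 on the opposite strand, a gene at 77.5 CPM, so its level is uncertain where strand was not used in counting. Trpm3, which responds to heat and steroids, had 5, 7, 7 and 8 counts in empty plasmid cells and 8, 4, 22 and 21 in Yy1 plasmid cells, and was too low to test.

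Glucagon release responds to glutamate, and the AMPA receptor subunits on the list were well expressed. Gria1 and Gria4, not on the list and picked after their values were seen, stood at 0.119 and 0.104 CPM in empty plasmid cells. Gria2, the subunit that keeps these receptors from passing calcium when edited, stood at 112 ± 4.79 and 113 ± 6.01 CPM, and Gria3 at 40.6 ± 2.61 and 41.2 ± 1.65 CPM (SD, n = 4). For both the log2 fold change was 0.02 (SE 0.0449 and 0.0526), and per kilobase Gria2 was 1.75 ± 0.0954 times as high as Gria3 in empty plasmid cells. That ratio depends on the length used, and with the longest transcript it was 1.39 ± 0.0755 (SD, n = 4).

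Calcium stores held the most abundant gene of the list. Atp2a2 (SERCA2), the pump that loads the endoplasmic reticulum, was at 681, 683, 688 and 690 CPM in empty plasmid cells and at 652, 678, 701 and 710 CPM in Yy1 plasmid cells. Its 113 ± 0.708 CPM per kilobase lay above 98.0% of the tested genes with an annotated length. The Yy1 libraries spread on both sides of the empty ones, and the log2 fold change of -0.00087 had a 95% interval from -0.082 to 0.080. Atp2a3 (SERCA3), the other pump on the list, was at 0.458 ± 0.109 and 0.585 ± 0.195 CPM (SD, n = 4).

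Release channels showed the value with the smallest p of the list. Itpr1, the main IP3 receptor here, stood at 75.3 ± 3.97 and 76.1 ± 2 CPM (SD, n = 4; change on the log2 scale 0.02, SE 0.0445). Ryr2, a ryanodine receptor, stood at 21.7, 26.4, 25.8 and 29.1 CPM in empty plasmid cells and at 27.8, 30.8, 26.3 and 29.4 CPM in Yy1 plasmid cells. Empty library 31 was the lowest of all, and the other libraries overlapped. For Ryr2 the log2 fold change was 0.15 (SE 0.0746; unadjusted p = 0.0573; adjusted p in edgeR = 0.911), and it was 0.071 without empty library 31. Itpr3 was at 2.08 ± 0.278 and 2.05 ± 0.576 CPM (SD, n = 4).

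Itpr2 (ENSMUSG00000030287, chromosome 6), the remaining IP3 receptor, had 21, 18, 27 and 29 counts in empty plasmid cells and 59, 51, 53 and 32 in Yy1 plasmid cells. In CPM it stood at 0.682, 0.678, 1.32 and 1.04 and at 1.81, 1.72, 1.59 and 1. Yy1 library 48 lay within the empty range, below empty libraries 33 and 34, and the other 3 Yy1 libraries lay above all 4 empty ones. Its log2 fold change was 0.74 (SE 0.259; unadjusted p = 0.0088; adjusted p in edgeR = 0.547), with a 95% interval from 0.21 to 1.28. It ran from 0.61 to 0.94 when single libraries were left out. Itpr2 made up 1.18 ± 0.344% of the level of release channels per kilobase in empty plasmid cells and 1.89 ± 0.468% in Yy1 plasmid cells (SD, n = 4), against 77.6 ± 1.4% and 75.8 ± 0.97% for Itpr1.

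Store-operated entry was represented by Stim1, the calcium sensor of the endoplasmic reticulum, and Orai1, a channel that it opens. Stim1 stood at 38.8, 38.3, 37.3 and 38.5 CPM in empty plasmid cells and at 35, 35.1, 36.8 and 39.4 CPM in Yy1 plasmid cells. Of the Yy1 libraries 3 lay below the empty range and 1 above it (log2 fold change -0.06, SE 0.0509, adjusted p in edgeR = 0.98). Orai1 stood at 3.72 ± 0.391 and 4.07 ± 0.501 CPM (SD, n = 4; change on the log2 scale 0.13, SE 0.133). Their relatives Stim2 and Orai3, picked after their values were seen, were higher per kilobase, at 32.6 ± 0.55 and 5.82 ± 0.554 CPM against 3.69 ± 0.066 for Stim1 and 1.62 ± 0.17 for Orai1 (SD, n = 4, empty plasmid).

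Set in order per kilobase in empty plasmid cells, Atp2a2 was followed by Abcc8 at 35.5 ± 1.28, Kcnj11 at 30.5 ± 0.478, Hcn2 at 29.2 ± 2.17, Kcnk16 at 22.7 ± 1.64, Kcnh2 at 18.9 ± 1.6 and Cacna2d1 at 12.7 ± 0.426 CPM (SD, n = 4). Cacna1c and Kcnk3 came next at 11.2 ± 0.759 and 11.1 ± 0.812 CPM. Libraries of the neighbours Kcnj11 and Hcn2, Kcnk16 and Kcnh2, and Cacna1c and Kcnk3 overlapped, so their order is not resolved. Below them came Gria2, Cacnb3, Gria3, Itpr1, Scn9a, Stim1, Scn8a, Kcnj3, Cacna1d and Orai1, from 7.21 down to 1.62 CPM per kilobase, where Gria3, Itpr1 and Scn9a overlapped, as did Stim1 and Scn8a, and Cacna1d and Orai1. In all, 9 genes lay at 10 CPM per kilobase or more and 19 at 1 or more. With the longest transcript as length the first 10 places were the same, and no gene moved by more than 4 places.

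How closely the groups could be compared followed the level. The 95% interval of the fold change lay within 1.2-fold in either direction for 19 of the 35 tested genes, within 1.5-fold for 29 and within 2-fold for 32. Among the 18 genes with an average log2 CPM of at least 4, 17 had an interval within 1.2-fold and 18 within 1.5-fold. Log2 fold changes of these 18 ran from -0.098 to 0.15. The 7 genes with an average log2 CPM under 1, Kcnj6, Cacna1a, Cacna1e, Cacna1g, Scn3b, Itpr2 and Atp2a3, had positive log2 fold changes with a median of 0.31. Over all 3867 tested genes at that level 56.9% were positive and the median was 0.053.

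**Figure D3:**
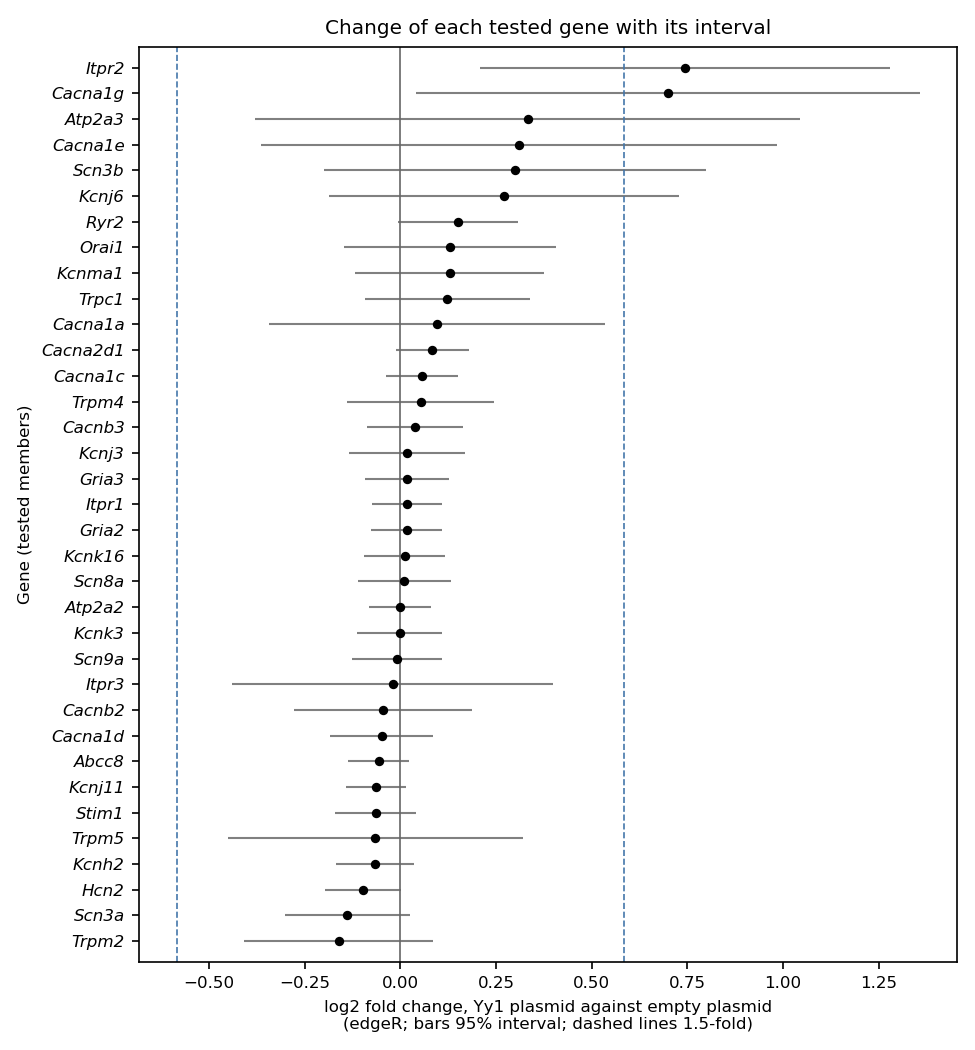
Log2 fold change of each of the 35 tested genes (Yy1 plasmid over empty plasmid, edgeR), with bars for the 95% interval and dashed lines at 1.5-fold. Itpr2 and Cacna1g lie highest with wide intervals, and the intervals of 29 genes stay inside the dashed lines.

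In both groups the extreme values of the genes were spread unevenly over the libraries. Empty library 32 was the highest of its group for 14 of the 35 genes and library 34 for 12, where they were the highest for 24.6% and 23.9% of all tested genes. Library 33 was the lowest for 15 and library 31 for 11, beside 29.8% and 22.9% of all tested genes. In the Yy1 group library 48 was the highest for 15 genes and library 45 for 12, beside 24.5% and 27.0% of all tested genes, and library 47 for 2, beside 25.0%. The median log2 ratio of the 35 genes to their group mean was -0.051, 0.066, -0.015 and 0.045 in libraries 31 to 34, against values between -0.0063 and -0.00094 over all tested genes. In the Yy1 group it ran from -0.026 to 0.037. The part of these differences in the fold changes was not tested. The median coefficient of variation between libraries was 7.94% in empty plasmid cells and 6.22% in Yy1 plasmid cells.

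**Figure D4:**
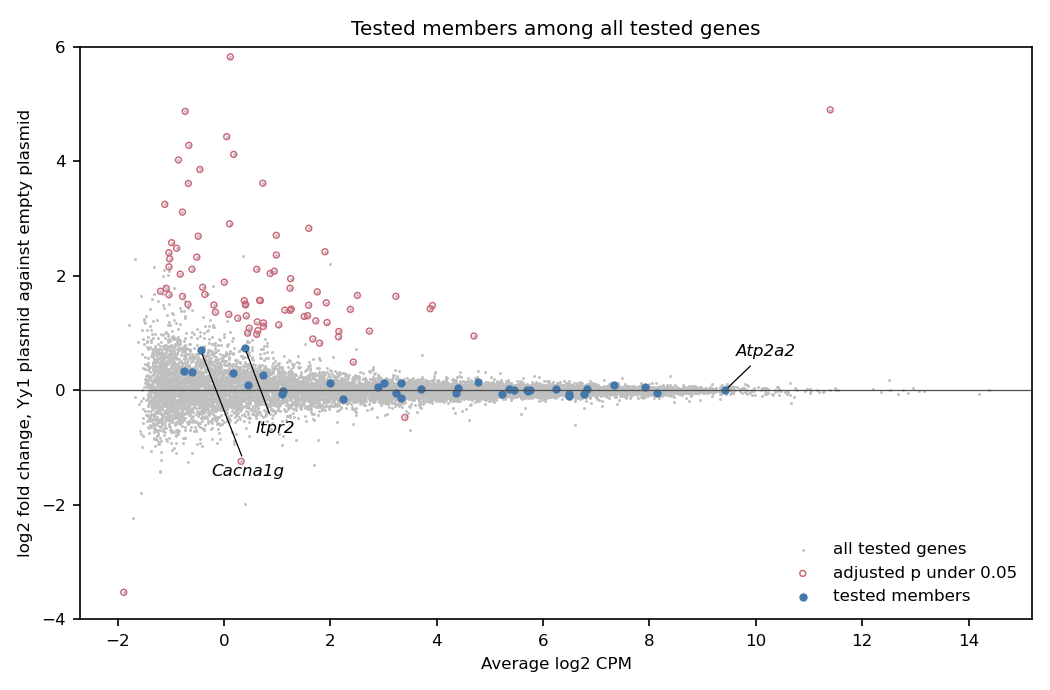
Log2 fold change against average log2 CPM for all 15916 tested genes (grey), those with an adjusted p under 0.05 (red circles) and the 35 tested genes of the list (blue). The blue points follow the grey cloud, which widens towards low levels, and no blue point is circled; the circle at the upper right is Yy1.

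Other channels, pumps and exchangers of excitability and calcium handling were taken as a list of 115 further genes, of which 62 could be tested. The edgeR test called 1, higher in Yy1 plasmid cells, beside 0.515% of all tested genes. An unadjusted p under 0.05 was found for 5, or 8.06%, beside 5.42% of all tested genes. Libraries of the groups did not overlap for 3, or 4.84%, beside 3.95%. The median log2 fold change was 0.016, and 41 were positive, or 66.1%, beside 48.6% of all tested genes. The called gene was P2rx7, an ATP-gated cation channel already known to differ in these libraries, with 23, 14, 9 and 27 counts against 169, 142, 161 and 153 (log2 fold change 2.83, SE 0.187, adjusted p in edgeR = 1.71e-09). It stood at 0.670 ± 0.236 and 4.90 ± 0.190 CPM (SD, n = 4).

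The next smallest p-values belonged to Orai2, Kcna5, Slc8a1 and Trpv2, and none was called. Orai2, a further store-operated channel, was at 18.4 ± 1.33 and 21.0 ± 0.85 CPM (SD, n = 4), with all Yy1 libraries above all empty ones (log2 fold change 0.20, SE 0.0656, adjusted p in edgeR = 0.469). Kcna5, a voltage-gated potassium channel, was at 12.1 ± 0.96 and 14.0 ± 0.534 CPM, again without overlap (log2 fold change 0.20, SE 0.0744, adjusted p in edgeR = 0.611). Slc8a1, a sodium-calcium exchanger, had a log2 fold change of 0.35 (SE 0.161, adjusted p in edgeR = 0.895) and Trpv2, a cation channel of the vanilloid class, of 0.29 (SE 0.138, adjusted p in edgeR = 0.909). For these last genes the groups overlapped.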

How the data were processed

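Messenger RNA was measured in 8 libraries, 4 per group. Per the submitters' processing notes, reads were handled with fastp and kallisto and the build GRCm39, and how transcripts were summed to genes and whether strand was used in counting are not given in the sources used here. The authors deposited expected counts per Ensembl gene, not scaled for depth. Between 15.2% and 18.6% of values per library were not whole, and they were rounded before testing. GENCODE mouse release M21 (GRCm38) gave symbols for 48278 of 75078 IDs and exon lengths, and no coordinates were carried between builds. Every listed gene was matched by symbol.

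The filter was filterByExpr with a count of at least 10 and a total of at least 15. After TMM scaling the whole table went through the quasi-likelihood functions glmQLFit (robust) and glmQLFTest of edgeR 4.0.16 under R 4.3.3. The test is two-sided, and p-values were adjusted by the Benjamini-Hochberg method over 15916 genes with a threshold of 0.05. The SE is the log2 fold change divided by the square root of F, and 95% intervals use the fit's degrees of freedom. CPM use TMM-scaled library sizes. CPM per kilobase divide by all annotated exon bases of a gene, counted once. Limits from counts cover counting error only. Pairs of replicates differed by more than sampling noise (chi-square per degree of freedom from 2.92 to 13.9). The fit was tested on simulated data. Alternatives were RLE, upper-quartile and no scaling, 2 other filters, DESeq2 1.42.0, limma-voom (limma 3.58.1), Yy1 left out, 1 surrogate variable (sva 3.50.0), each library left out and the longest transcript as length.

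The members and lists were chosen with earlier results of these data known. Named genes are the 45 members, Yy1, Gcg, any called gene among the 115 further channel genes and the 4 next smallest p-values there. Other names are marked as picked later or serve as cell type markers. A planned search for pore motifs in proteins was not run, because no protein table was used here.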

Additional observations from a re-analysis of the deposited data

Results flagged for a closer look

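Each tested gene of the list was checked in each group for a library that stands apart from the other 3, as a gap to its neighbour, relative to the group's range, above Dixon's 95% critical value. Of 70 checks 4 were positive, and chance gives about 1 in 20. All 4 were in the Yy1 plasmid group. Abcc8 was at 282 CPM in library 48 against 274 to 275 CPM in the others. Scn3b was at 1.35 CPM in library 48, against 1.08 to 1.1 CPM. Kcnma1 was at 8.15 CPM in library 47, against 11 to 11.4 CPM, and without that library its log2 fold change was 0.23, with an edgeR adjusted p of 0.921. Over the 8 libraries left out in turn, the log2 fold change of Kcnma1 ran from 0.023, without empty library 31, to that value. Cacna1g was at 1.21 CPM in library 46, against 0.632 to 0.721 CPM.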

How the results depend on the processing

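No gene of the list was called in any of 17 alternatives, of which 8 left out a library, and the count of called further channel genes was 1 in each. Over all genes the count of calls, 82, became 54 with the 1 CPM filter and 174 with no filter. The median log2 fold change of the tested genes of the list ran from 0.0087 to 0.041. With no filter all 45 genes were tested and 5 had an unadjusted p under 0.05, and over all alternatives this count ran from 1 to 5. No paired analysis was possible because the groups share no sample numbers. The log2 fold change changed sign in at least 1 alternative for 12 of the 35 genes. Without single libraries the log2 fold change ran for Kcnj3 from -0.01842 to 0.04964, for Kcnk3 from -0.02607 to 0.04752, for Kcnk16 from -0.02337 to 0.04636, for Cacnb2 from -0.156 to 0.00873, for Scn8a from -0.0598 to 0.06318, for Scn9a from -0.04976 to 0.03661. It ran for Trpm5 from -0.2003 to 0.07882, for Gria2 from -0.008743 to 0.04163, for Gria3 from -0.01424 to 0.04567, for Itpr1 from -0.01702 to 0.04145, for Itpr3 from -0.1565 to 0.1512, for Atp2a2 from -0.01991 to 0.02044. Among other settings, Kcnk3 had 0.005695 with upper-quartile scaling, 0.001348 with no filter on low counts, 0.0001239 with 1 CPM filter, 0.003983 with limma-voom, 0.02567 with 1 surrogate variable. Gria3 had -0.00347 with 1 surrogate variable. Atp2a2 had 0.006934 with upper-quartile scaling, 0.003066 with no filter on low counts, 0.001364 with 1 CPM filter, 0.0008062 with 1 surrogate variable. With the longest transcript as length 30 of 45 levels per kilobase and 20 of 44 family shares moved by more than the spread between libraries. Depth limits the 10 untested genes and the 7 tested ones with an average log2 CPM under 1, of which 1 had a 95% interval within 1.5-fold.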
